A study of Mus musculus with 6 samples.

Results

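The 10 genes described here make, break down or sense leukotrienes. They were chosen by name from the 49315 genes counted in RNA sequencing of mouse liver F4/80-positive cells. They are *Alox5*, *Alox5ap*, *Lta4h*, *Ltc4s*, *Mgst2*, *Mgst3*, *Ggt5*, *Cysltr1*, *Ltb4r1* and *Ptgr1*, and all 10 had enough counts to be tested. The cells came from 3 WT and 3 Lpcat3 KOMac mice, with 1 library per mouse. All 6 mice had eaten a diet with 60% fat for 16 weeks and carried floxed *Lpcat3* alleles (*Lpcat3* fl/fl) on a C57BL/6N background. WT mice were littermates without Cre (*LysM* +/+), and Lpcat3 KOMac mice carried 1 Cre allele (*LysM* Cre/+). Their ages and sexes are not given per library. Cre is inserted into *Lyz2* and acts in myeloid cells beyond Kupffer cells, such as neutrophils. Recombination by it is often incomplete. The comparison asks how gene expression differs in macrophages that lack much of LPCAT3, the acyltransferase that places arachidonic acid into phospholipids.

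Leukotrienes are lipid messengers made from arachidonic acid, mostly in myeloid cells. Phospholipase A2 frees arachidonic acid from the membrane, FLAP (*Alox5ap*) presents it to arachidonate 5-lipoxygenase (*Alox5*), and the unstable leukotriene A4 that results is hydrolysed to leukotriene B4 or joined to glutathione to give leukotriene C4. Leukotriene B4 draws neutrophils and other leukocytes to a tissue, while leukotriene C4 and its cleavage products contract smooth muscle and make vessels leak. Macrophages are a known source of both kinds.

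The split of leukotriene A4 between its routes lies with *Lta4h* and *Ltc4s*, and of these *Ltc4s* alone was lower in every Lpcat3 KOMac mouse. For this reason the bases in front of the RefSeq start of both genes are shown, beside those of *Alox5*, which makes their substrate. RefSeq, on GRCm38.p6, had start windows for 7 of the 10 genes, and *Alox5ap* was not among them. The sequences run 5′ to 3′ on the strand of the gene. Capitals mark matches, on either strand, to the letters GGGCGG (a GC box) or GAGGAA (the core of many sites of the myeloid factor PU.1).

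*Alox5*, chr6:116461179-116461428, minus strand: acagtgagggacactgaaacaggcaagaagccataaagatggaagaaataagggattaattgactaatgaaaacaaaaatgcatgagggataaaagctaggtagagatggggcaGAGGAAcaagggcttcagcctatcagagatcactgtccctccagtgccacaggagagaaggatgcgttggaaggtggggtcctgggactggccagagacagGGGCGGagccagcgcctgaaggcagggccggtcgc
*Lta4h*, chr10:93453146-93453395, plus strand: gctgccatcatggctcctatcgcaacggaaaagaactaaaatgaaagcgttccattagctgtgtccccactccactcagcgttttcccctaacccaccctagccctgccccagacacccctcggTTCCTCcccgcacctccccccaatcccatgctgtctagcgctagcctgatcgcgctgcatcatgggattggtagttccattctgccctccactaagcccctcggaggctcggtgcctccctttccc
*Ltc4s*, chr11:50238617-50238782, minus strand: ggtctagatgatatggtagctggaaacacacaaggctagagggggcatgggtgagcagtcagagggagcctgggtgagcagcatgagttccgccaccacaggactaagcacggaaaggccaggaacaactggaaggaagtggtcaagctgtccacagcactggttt

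The *Alox5* window held 1 match to GGGCGG and 1 to GAGGAA. The *Lta4h* window held 1 match to GAGGAA, on the opposite strand. Neither was found in the 250 bases before the start of *Ltc4s*, of which the 166 outside the gene as the count tables place it are printed. Both were also absent from the 250 bases before the start of *Mgst2*, whose groups overlapped, and *Mgst3* and *Ptgr1* had no match to GAGGAA. Among all 32851 RefSeq windows of 250 bases, 32.74% held GGGCGG and 23.25% held GAGGAA. The same search was made for an AP-1 motif, TGANTCA, held by 6.749% of all windows. A C/EBP motif, TTGCNNAA, was held by 9.564% of all windows. A TATA box, TATAAA, was held by 12.37% of them. The 3 windows printed here held no match to these. A match is a description of the letters, not a binding site.

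Total counts lay between 44954224 and 71392812 per library. *Lpcat3* was at 85, 66.2 and 61.2 CPM (counts per 1000000, scaled by the TMM method) across WT mice 1 to 3 and at 19.5, 33.3 and 19.4 CPM across Lpcat3 KOMac mice 1 to 3, so every library matched its label. *Emg1* on the other strand shares 334 exonic bases with *Lpcat3* and had 1676 to 2675 counts, against 912 to 1727 *Lpcat3* counts in Lpcat3 KOMac mice, so the remaining *Lpcat3* level is uncertain. *Lyz2* was at 37.4% of its WT mean in Lpcat3 KOMac cells. The Kupffer cell markers were high in all libraries, with the sum of 8 transcripts between 21788 and 38446 CPM. The libraries of WT mouse 1 and Lpcat3 KOMac mouse 2 stood apart in hepatocyte transcripts. The sum of *Alb*, *Apoa1*, *Ttr*, *Apob* and *Fgb* was 18861, 1769 and 1761 CPM across WT mice 1 to 3 and 4571, 12439 and 4438 CPM across Lpcat3 KOMac mice 1 to 3. Results for some genes are therefore also given without these 2 libraries. In sorted cells measured in bulk, fewer cells of a type and less RNA per cell cannot be told apart.

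None of the 10 leukotriene genes passed the test between genotypes (edgeR's quasi-likelihood test, with p-values adjusted over 16134 genes by Benjamini-Hochberg). Of all genes tested, 0 passed at an adjusted p under 0.05, which is 0%. *Lpcat3* itself, at a log2 fold change of -1.56 (SE 0.26), and *Lyz2*, at -1.42 (SE 0.30), did not pass either. Since the test did not call even the deleted gene, the lack of calls among the 10 says little about smaller differences. At an unadjusted p under 0.05 stood 2 of the 10, *Alox5ap* and *Ltc4s*, both lower in Lpcat3 KOMac cells, against 2.64% of all genes in either direction and 1.57% in that direction. Higher in Lpcat3 KOMac cells at that threshold stood 0 of the 10, against 1.07%. With libraries scaled by total counts alone the split over all genes turned from 254 lower and 172 higher to 39 lower and 279 higher, while 2 of the 10 were again lower. The count of 2 fell to 1 without WT mouse 2, WT mouse 3, Lpcat3 KOMac mouse 1 or Lpcat3 KOMac mouse 3. Over all genes, those fits put 227 of 16566, 543 of 16534, 179 of 16457 and 382 of 16521 at that threshold. Without both libraries rich in hepatocyte transcripts the count was 3, against 1767 of 16126 genes. DESeq2 and limma-voom called 0 of the 10 as well, with the same number at an unadjusted p under 0.05. DESeq2 called 12 genes in all, 0.0744% of those tested, and limma-voom 0. Among the 12 were *Lpcat3* (adjusted p = 0.00286, DESeq2) and *Lyz2* (adjusted p = 0.0485, DESeq2). The same 2 genes were those whose groups did not overlap, against 7.49% of all genes tested and 5.2% in that direction. In the other direction it was 0 of the 10, against 2.29%. Of the 10 log2 fold changes (Lpcat3 KOMac against WT), 7 were below 0, with a median of -0.14. Over all genes tested, 9668 of 16134 were below 0 and the median was -0.04.

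**Figure D1:**
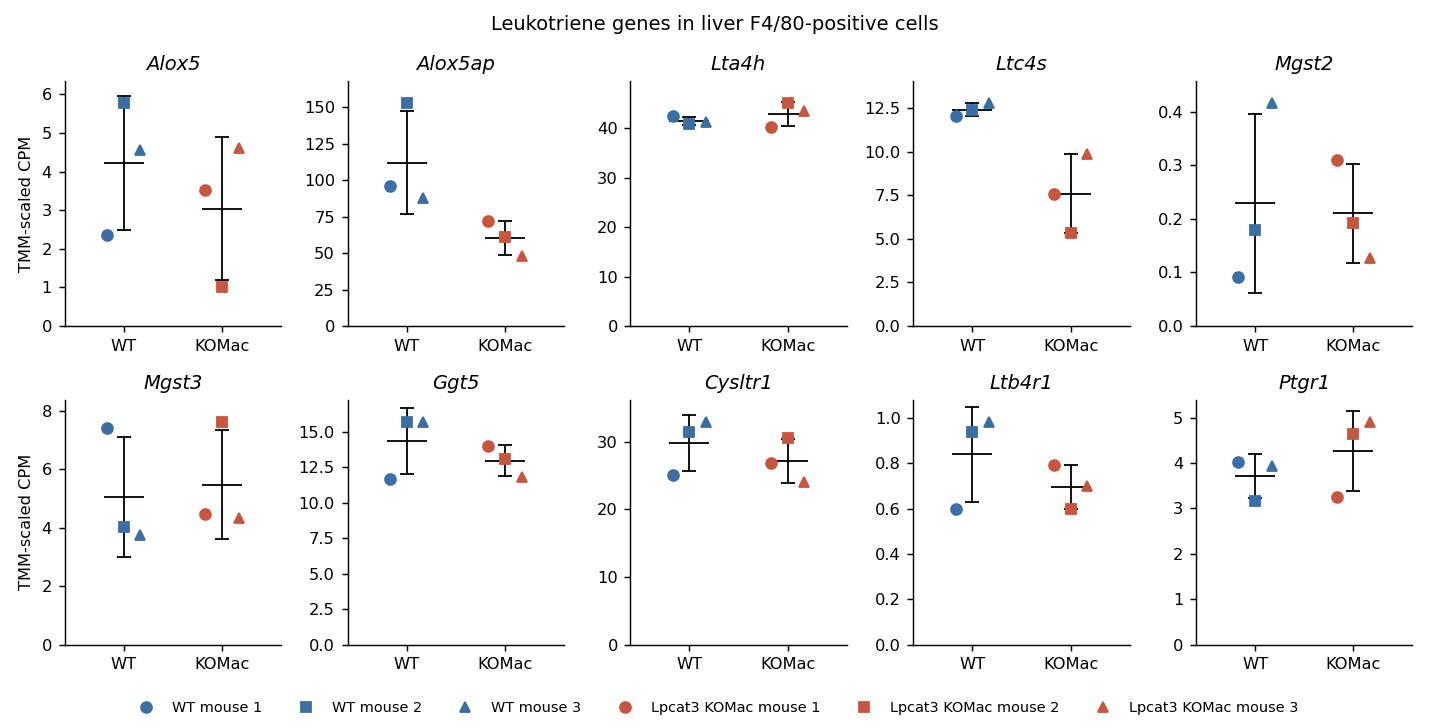
TMM-scaled CPM (vertical axes, starting at 0) of the 10 leukotriene genes in each of 3 WT and 3 Lpcat3 KOMac mice, with the genotype mean and SD in black. For *Alox5ap* and *Ltc4s* every Lpcat3 KOMac mouse lies below every WT mouse, and for the other 8 genes the groups overlap.

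The synthesis of leukotriene A4 rests on *Alox5ap* and *Alox5*. *Alox5ap* (ENSMUSG00000060063, chromosome 5 of GRCm38, 149264767 to 149288153, plus strand) encodes FLAP, the membrane protein that hands arachidonic acid to the lipoxygenase. It was at 96, 153 and 87.6 CPM across WT mice 1 to 3, against 71.8, 60.9 and 48.2 CPM across Lpcat3 KOMac mice 1 to 3. All Lpcat3 KOMac mice were below all WT mice, and the gap between the lowest WT and the highest Lpcat3 KOMac mouse was small beside the lead of WT mouse 2. The means were 112 ± 35.4 CPM and 60.3 ± 11.8 CPM (SD, n = 3 each), so the Lpcat3 KOMac mean was 53.8% of the WT mean. The log2 fold change was -0.90 (standard error, SE, 0.26, 95% interval -1.54 to -0.25, unadjusted p = 0.0147, adjusted p = 1, edgeR). Only 0.62% of the genes tested had a log2 fold change as low or lower. The two-sided exact permutation test gave p = 0.1, the smallest that 3 mice against 3 allow. Without WT mouse 2, the log2 fold change was -0.61, and without both libraries rich in hepatocyte transcripts it was -1.0. The gene *Gm19719* on the other strand shares 189 exonic bases with *Alox5ap* and had 11 to 44 counts per library, against 2266 to 7651 for *Alox5ap*.

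*Alox5* (ENSMUSG00000025701, chromosome 6, 116410077 to 116461178, minus strand) encodes the lipoxygenase itself, and its transcript was scarce. It was at 2.35, 5.77 and 4.57 CPM across WT mice 1 to 3, against 3.51, 1 and 4.61 CPM across Lpcat3 KOMac mice 1 to 3, resting on 52 to 289 counts. The groups overlapped, and the lowest libraries were Lpcat3 KOMac mouse 2 and WT mouse 1, those with the most hepatocyte transcripts. With the hepatocyte transcripts as a covariate the log2 fold change given next was -0.21. The log2 fold change was -0.48 (SE 0.62, 95% interval -2.0 to 1.05, adjusted p = 1, edgeR). It was -0.04 without Lpcat3 KOMac mouse 2 and -0.88 without Lpcat3 KOMac mouse 3. Lpcat3 KOMac mouse 2 was also lowest in the Kupffer cell transcripts *Timd4* and *Marco*, at 123 and 148 CPM, against 344 to 938 and 999 to 3168 CPM in the other libraries.

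Leukotriene A4 hydrolase, the enzyme that forms leukotriene B4, was the steadiest of the 10. *Lta4h* (ENSMUSG00000015889, chromosome 10, 93453411 to 93484875, plus strand) was at 42.4, 40.8 and 41.2 CPM across WT mice 1 to 3, against 40.1, 45 and 43.5 CPM across Lpcat3 KOMac mice 1 to 3. Its highest library was 1.12 times its lowest, although hepatocyte transcripts differed 10.7-fold among the same libraries. The log2 fold change was 0.05 (SE 0.08, 95% interval -0.15 to 0.24, adjusted p = 1, edgeR).

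Leukotriene C4 is formed by enzymes of the MAPEG family of small membrane proteins, to which FLAP also belongs. *Ltc4s* (ENSMUSG00000020377, chromosome 11, 50236469 to 50238616, minus strand) encodes the dedicated leukotriene C4 synthase. It was at 12.1, 12.4 and 12.8 CPM across WT mice 1 to 3, nearly the same in each, and at 7.59, 5.32 and 9.86 CPM across Lpcat3 KOMac mice 1 to 3, lower in all of them and more spread. The Lpcat3 KOMac mean, 7.59 ± 2.27 CPM, was 61.2% of the WT mean of 12.4 ± 0.353 CPM (SD, n = 3 each). The log2 fold change was -0.71 (SE 0.24, 95% interval -1.29 to -0.13, unadjusted p = 0.0251, adjusted p = 1, edgeR), with 1.31% of the genes tested as low or lower and an exact permutation p of 0.1. It was -0.49 without Lpcat3 KOMac mouse 2, -0.92 without Lpcat3 KOMac mouse 3 and -0.53 without both libraries rich in hepatocyte transcripts. *Gm26542* on the other strand shares 192 exonic bases with *Ltc4s* and had 18 to 72 counts, against 276 to 784 for *Ltc4s*.

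*Mgst3* (ENSMUSG00000026688, chromosome 1, 167371966 to 167393841, minus strand), a related microsomal glutathione transferase, was at 7.42, 4.01 and 3.74 CPM across WT mice 1 to 3, against 4.48, 7.62 and 4.31 CPM across Lpcat3 KOMac mice 1 to 3. The high libraries were WT mouse 1 and Lpcat3 KOMac mouse 2, again those highest in hepatocyte transcripts. The log2 fold change was 0.11 (SE 0.38, adjusted p = 1, edgeR) and turned to -0.07 with the hepatocyte transcripts as a covariate. *Mgst2* (ENSMUSG00000074604, chromosome 3, 51660360 to 51682677, plus strand), the other transferase known to make leukotriene C4, was barely detected, with 6, 9 and 19 counts across WT mice 1 to 3 and 18, 10 and 6 counts across Lpcat3 KOMac mice 1 to 3. Its log2 fold change of -0.08 had an SE of 0.65 (adjusted p = 1, edgeR).

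Levels of different genes were compared per length, as CPM per kb of exonic length. This length covers all annotated exons of a gene, such as 6102 bases for *Lta4h* and 736 for *Ltc4s*, not a single transcript. The order of the genes and the ratios between them depend on it. *Alox5ap* stood first at 60.7 ± 26 CPM per kb (SD over 6 libraries), followed by *Ltc4s* at 13.6 ± 4.09, *Lta4h* at 6.91 ± 0.3, *Cysltr1* at 5.54 ± 0.711 and *Mgst3* at 4.8 ± 1.61 CPM per kb. Below them came *Ggt5* at 2.88 ± 0.377, *Ptgr1* at 1.74 ± 0.308, *Alox5* at 0.886 ± 0.421, *Ltb4r1* at 0.552 ± 0.119 and *Mgst2* at 0.0593 ± 0.0327 CPM per kb. Ranges over the libraries overlapped for the neighbours *Ltc4s* and *Lta4h*, *Cysltr1* and *Mgst3*, *Ptgr1* and *Alox5*, and *Alox5* and *Ltb4r1*. Within single libraries the first of each pair was higher in 5, 4, 5 and 5 of 6, so none of these pairs held its order in every library. The FLAP transcript was thus 30.2 to 175 times as abundant per length as that of the lipoxygenase it serves. This ratio was 118, 76.6 and 55.4 across WT mice 1 to 3 and 59.1, 175 and 30.2 across Lpcat3 KOMac mice 1 to 3, with overlapping groups.

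**Figure D2:**
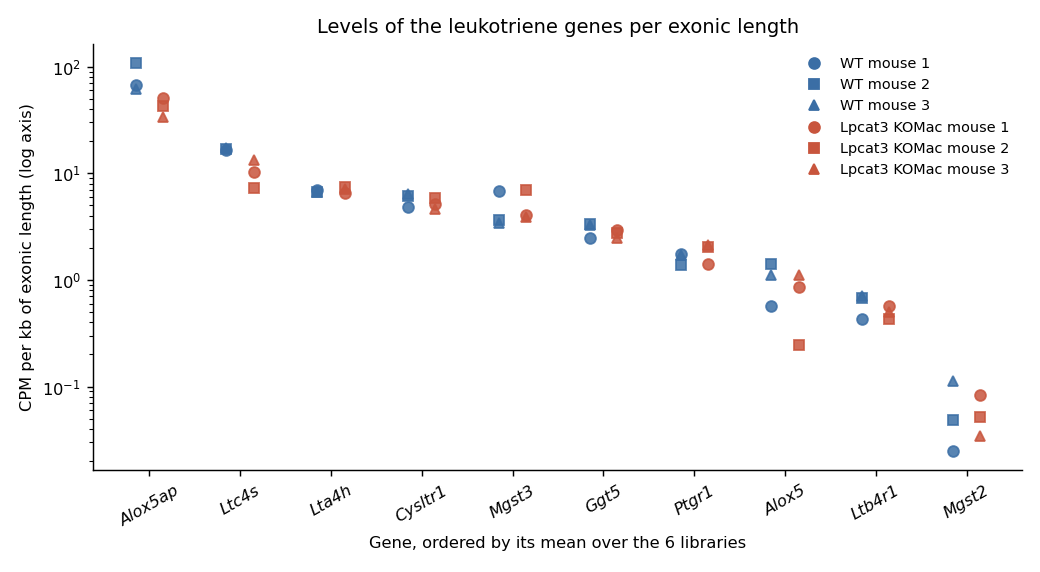
CPM per kb of exonic length (vertical log axis) of the 10 leukotriene genes, ordered by their mean over 6 libraries, with 1 point per mouse. *Alox5ap* is highest in every library and *Mgst2* lowest, with *Alox5* near the low end.

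Of the summed level per length of *Ltc4s*, *Mgst2* and *Mgst3*, *Ltc4s* made up 70.7%, 82% and 83.1% across WT mice 1 to 3 and 71.2%, 50.8% and 77.2% across Lpcat3 KOMac mice 1 to 3. The groups overlapped (exact permutation test, two-sided p = 0.3). Between the enzymes that compete for leukotriene A4, the ratio of *Ltc4s* to *Lta4h* per length was 2.36, 2.52 and 2.57 across WT mice 1 to 3 and 1.57, 0.98 and 1.88 across Lpcat3 KOMac mice 1 to 3. It was lower in every Lpcat3 KOMac mouse, with means of 2.48 ± 0.111 and 1.48 ± 0.457 (SD, n = 3 each, exact permutation test, two-sided p = 0.1, adjusted p = 0.5 over 5 ratios). This ratio rests on the *Ltc4s* values given above, since *Lta4h* varied little.

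Breakdown of the cysteinyl leukotrienes begins with *Ggt5* (ENSMUSG00000006344, chromosome 10, 75589340 to 75617200, plus strand), which removes glutamate from leukotriene C4 and so makes leukotriene D4. It was at 11.7, 15.7 and 15.7 CPM across WT mice 1 to 3, against 14, 13.1 and 11.8 CPM across Lpcat3 KOMac mice 1 to 3, with WT mouse 1 and Lpcat3 KOMac mouse 3 lowest and overlapping groups. The log2 fold change was -0.15 (SE 0.16, 95% interval -0.53 to 0.24, adjusted p = 1, edgeR). Without both libraries rich in hepatocyte transcripts, *Ggt5* stood at -0.28. Its paralog *Ggt1* was almost absent, with at most 2 counts in any library. *Ptgr1* (ENSMUSG00000028378, chromosome 4, 58965439 to 58987119, minus strand), a reductase that oxidises leukotriene B4 and so inactivates it, was at 4.03, 3.15 and 3.94 CPM across WT mice 1 to 3, against 3.25, 4.63 and 4.91 CPM across Lpcat3 KOMac mice 1 to 3. The groups overlapped through Lpcat3 KOMac mouse 1, and the log2 fold change was 0.20 (SE 0.23, 95% interval -0.38 to 0.78, adjusted p = 1, edgeR).

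The receptor of leukotriene D4, *Cysltr1* (ENSMUSG00000052821, chromosome X, 106574346 to 106603679, minus strand), was the more abundant of the 2 receptor genes. It was at 25.1, 31.4 and 32.9 CPM across WT mice 1 to 3, against 26.8, 30.5 and 24 CPM across Lpcat3 KOMac mice 1 to 3. These values overlapped widely, and the log2 fold change was -0.14 (SE 0.15, 95% interval -0.50 to 0.22, adjusted p = 1, edgeR). Without both libraries rich in hepatocyte transcripts it was -0.34 (adjusted p = 0.309, edgeR), with the smallest adjusted p of the 10 genes in that fit. *Cysltr1* was 1.59 to 1.83 times as abundant per length as *Cysltr2*, the second receptor of cysteinyl leukotrienes, in every library. *Ltb4r1* (ENSMUSG00000046908, chromosome 14, 55765962 to 55768494, plus strand), the high-affinity receptor of leukotriene B4, was low, at 0.6, 0.938 and 0.984 CPM across WT mice 1 to 3, against 0.792, 0.598 and 0.701 CPM across Lpcat3 KOMac mice 1 to 3, or 31 to 47 counts. Its log2 fold change was -0.27 (SE 0.30, 95% interval -1.01 to 0.47, adjusted p = 1, edgeR), and -0.36 without both libraries rich in hepatocyte transcripts.

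**Figure D3:**
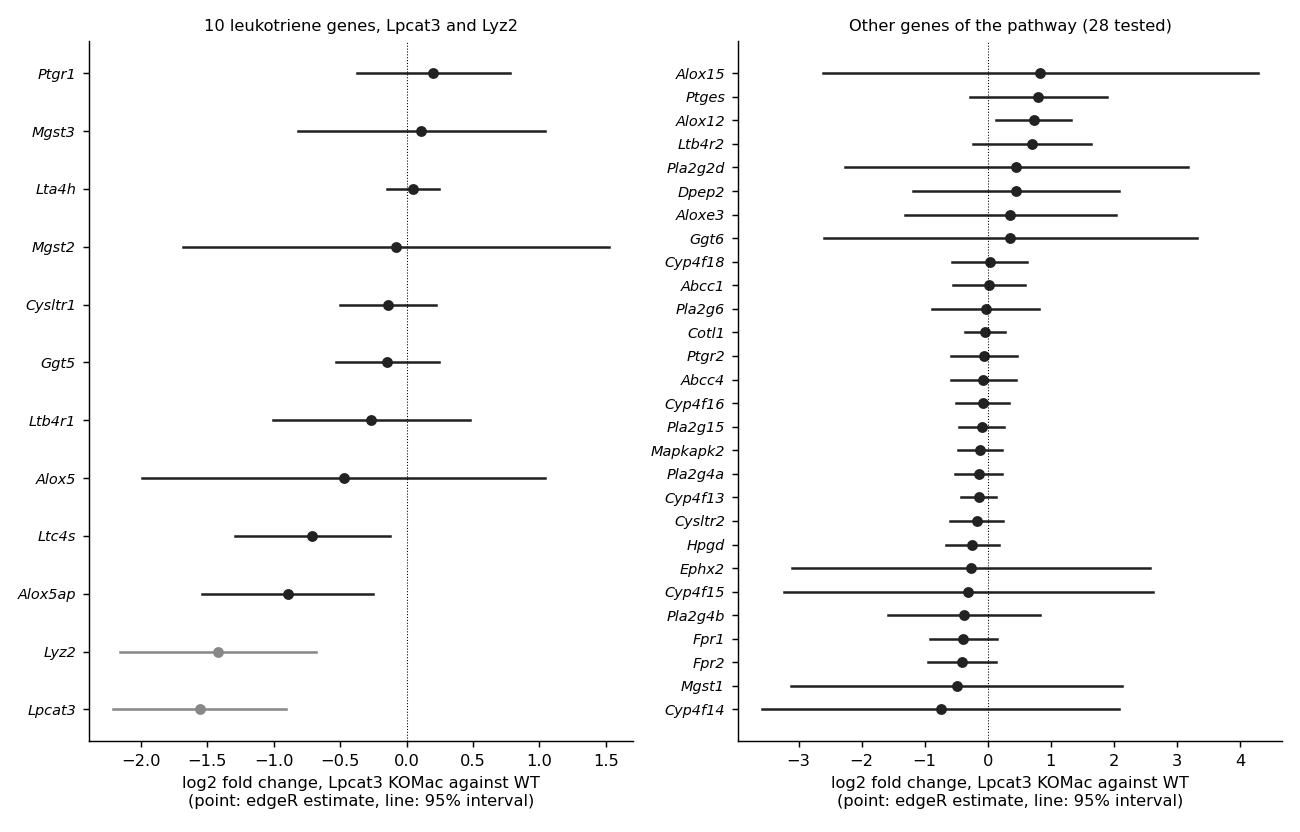
Log2 fold change of Lpcat3 KOMac against WT (horizontal axis, points with 95% intervals from edgeR) for the 10 leukotriene genes with *Lpcat3* and *Lyz2* in grey on the left, and for 28 other genes of the pathway on the right. On the left the intervals of *Alox5ap* and *Ltc4s* lie below 0 and those of the other 8 leukotriene genes include 0, and on the right *Alox12* is the gene whose interval lies above 0.

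Without WT mouse 1, the groups of 6 of the 10 genes did not overlap (*Alox5ap*, *Ltc4s*, *Ggt5*, *Cysltr1* and *Ltb4r1* lower and *Mgst3* higher in Lpcat3 KOMac cells), against 32.7% of all genes tested. The same 6 genes were separated without both libraries rich in hepatocyte transcripts, against 41.8% of all genes. Without Lpcat3 KOMac mouse 1 it was 4 genes, with *Lta4h* and *Ptgr1* higher, against 10.3%. *Alox5ap* and *Ltc4s* were already separated with all 6 mice, which leaving out a mouse does not test. None of the 10 genes had an adjusted p under 0.05 in any of these fits.

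**Figure D4:**
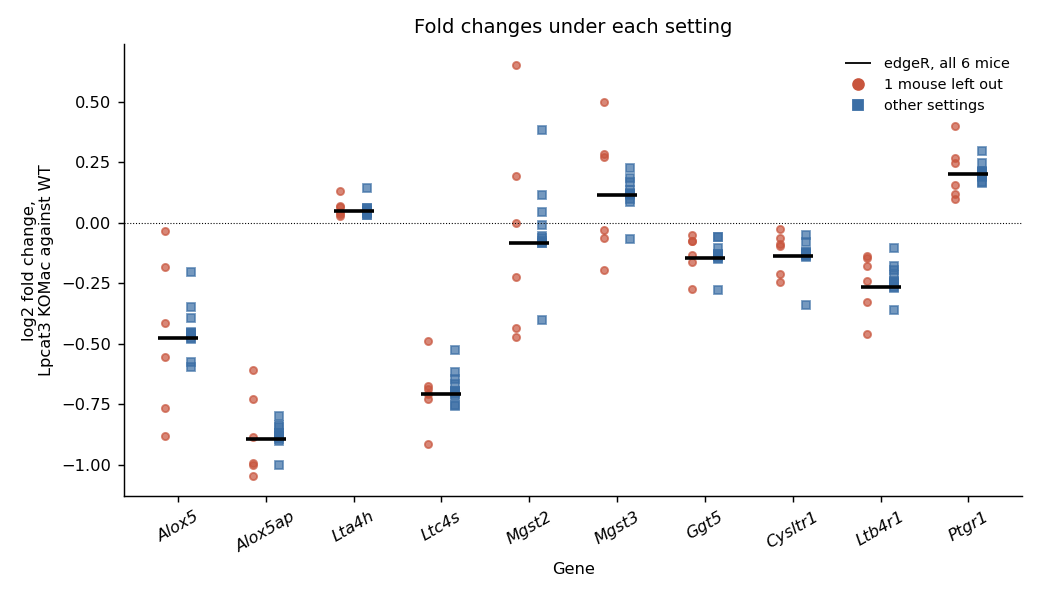
Log2 fold change of Lpcat3 KOMac against WT (vertical axis) of the 10 leukotriene genes in edgeR with all 6 mice (black bars), with 1 mouse left out (red circles) and under the other settings (blue squares). *Alox5ap* and *Ltc4s* stay below 0 throughout, at most -0.61 and -0.49, while *Mgst2* and *Mgst3* fall on both sides of 0. For *Alox5ap* and *Ltc4s* leaving out a mouse could not turn the sign, since their groups are separated with all 6 mice.

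Both genes that were lower in all Lpcat3 KOMac mice have short transcripts, of 1420 exonic bases for *Alox5ap* and 736 for *Ltc4s*. *Mgst3* with 1097 and *Ltb4r1* with 1394 exonic bases are shorter than *Alox5ap* but longer than *Ltc4s*. The groups of *Mgst3* and *Ltb4r1* overlapped, with log2 fold changes of 0.11 and -0.27. The median log2 fold change was -0.09 over the 1472 genes of up to 1000 exonic bases and -0.11 over the 1125 genes between 1000 and 1500 bases, against -0.01 over the 7147 genes above 4000 bases. With an offset for the trend of the counts with length, the log2 fold changes were -0.84 for *Alox5ap* and -0.65 for *Ltc4s*. The part of length in these values was not tested further.

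Marker transcripts of the cells in the preparation lay both lower and higher in Lpcat3 KOMac mice, and none of them passed the adjusted test. Each of the 8 Kupffer cell markers had a log2 fold change below 0, as did 9668 of all 16134 genes tested. Their values ran from -0.46 for *Timd4* to -0.18 for *Adgre1*. Of these 8, 3 were lower in every Lpcat3 KOMac mouse, against 5.2% of all genes tested. The 3 were *Clec4f* at -0.44, *Folr2* at -0.45 and *C1qa* at -0.31 (SE 0.17, 0.16 and 0.12). The sum of all 8 overlapped, at 28502 to 38446 CPM in WT and 21788 to 30590 CPM in Lpcat3 KOMac mice, and the part of these transcripts in the *Alox5ap* and *Ltc4s* values was not tested. Neutrophils, eosinophils, mast cells and basophils are rich in leukotriene enzymes, and their summed markers lay higher in all Lpcat3 KOMac mice. The part of these cells in the values of the 10 genes was not tested. The summed neutrophil markers were at 2.08 to 3.13 CPM in WT and 4.38 to 5.59 CPM in Lpcat3 KOMac mice. Of the 5 markers, 3 were separated, against 2.29% of all genes tested, while the groups of *S100a9* and *Retnlg* overlapped. The separated ones were *S100a8*, *Cxcr2* and *Mpo*. The last had too few counts to test, with 0 in all WT libraries and 1, 9 and 2 across Lpcat3 KOMac mice 1 to 3. Of 4 eosinophil markers *Ccr3* alone was separated, against the same 2.29%. *Siglecf* overlapped, as did *Prg2* and *Epx*, which had too few counts to test. The eosinophil sums were 6.17 to 14.4 and 14.6 to 27.5 CPM. For 5 mast cell and basophil markers they were 1.12 to 2.03 and 2.06 to 3.94 CPM, so both separations were narrow. The latter sum was almost all *Gata2*, which was separated, at 1.99, 1.1 and 1.84 CPM across WT mice 1 to 3. It was at 3.86, 3.57 and 2 CPM across Lpcat3 KOMac mice 1 to 3. The other 4 markers of that list had too few counts to test. *Cpa3* had 0 counts in all WT libraries and 3, 1 and 1 across Lpcat3 KOMac mice 1 to 3, too few to order the groups. The summed cholangiocyte markers, at 0.319 to 0.678 and 0.895 to 1.14 CPM, were also separated, with none of the 4 markers separated alone. The sums of the monocyte, lymphocyte, dendritic cell, platelet, endothelial and stellate cell markers overlapped between genotypes, as did those of the hepatocyte markers. Within these lists, the monocyte marker *Chil3* was higher in every Lpcat3 KOMac mouse, with a log2 fold change of 1.70 (SE 0.62). It was at 1.12, 1.04 and 2.12 CPM across WT mice 1 to 3, and at 8.77, 2.43 and 2.70 CPM across Lpcat3 KOMac mice 1 to 3. The monocyte markers *Plac8*, *Ly6c2* and *Ccr2* overlapped, at -0.51 (SE 0.43), 0.50 (SE 0.35) and 0.36 (SE 0.62). At an unadjusted p under 0.05 but with overlapping groups stood *F13a1*, at 1.05 (SE 0.40), and the endothelial markers *Kdr* and *Ptprb*, at 0.79 (SE 0.27) and 0.77 (SE 0.26).

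**Figure D5:**
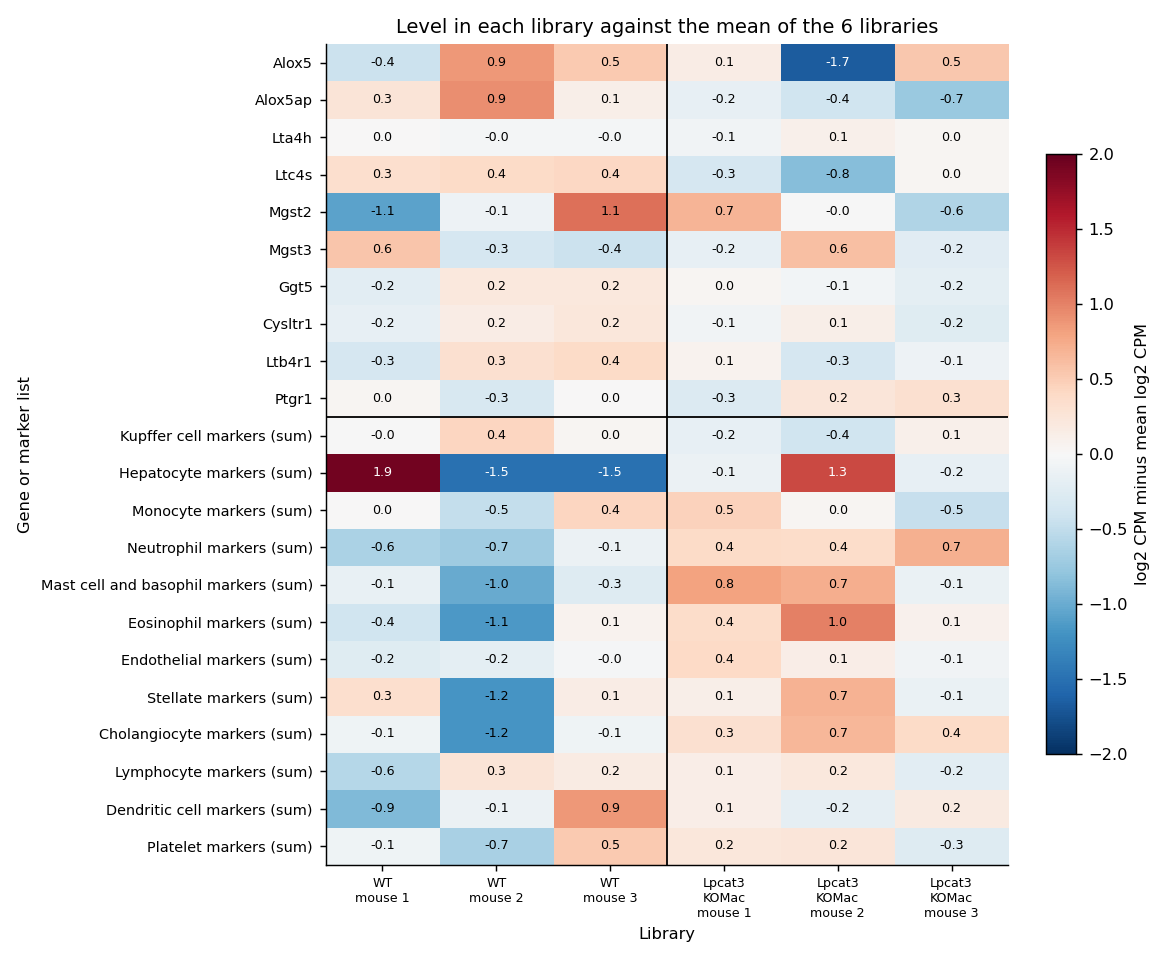
Log2 CPM minus its mean over the 6 libraries (colour and number) for the 10 leukotriene genes above the line and for the summed markers of 12 cell types below it, with WT mice on the left and Lpcat3 KOMac mice on the right. *Alox5* is lowest and *Mgst3* highest in the libraries of WT mouse 1 and Lpcat3 KOMac mouse 2, where hepatocyte markers are highest, and *Lta4h* is near 0 everywhere.

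Other genes of the pathway were taken from a list of 38, of which 28 could be tested. None passed the test, and 1 stood at an unadjusted p under 0.05, against 2.64% of all genes tested in either direction. That gene was *Alox12*, an arachidonate lipoxygenase of platelets. It was at 0.739, 0.759 and 0.94 CPM across WT mice 1 to 3, against 1.39, 1.18 and 1.47 CPM across Lpcat3 KOMac mice 1 to 3, all above WT, with a log2 fold change of 0.73 (SE 0.24, adjusted p = 1, edgeR). The summed platelet markers overlapped, at 12.4 to 28.1 CPM in WT and 16.3 to 23.2 CPM in Lpcat3 KOMac mice. Most of that sum was *Pf4*, at a log2 fold change of 0.0067 (SE 0.36). *Ppbp* and *Itga2b* stood at 0.84 (SE 0.54) and 0.53 (SE 0.34), with overlapping groups, and *Gp9* had too few counts to test. The part of platelets in the *Alox12* values was not tested. Of the 28 log2 fold changes, 18 were below 0, and their median was -0.07. With libraries scaled by total counts alone, 13 of the 28 and 5670 of all 16134 genes were below 0, while the count stayed at 7 for the 10 leukotriene genes. Without WT mouse 1, 7 of 30 tested genes of the list stood at an unadjusted p under 0.05, against 2028 of 16487 genes overall.

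Upstream of the leukotriene genes, *Pla2g4a*, the cytosolic phospholipase A2 that frees arachidonic acid, was at 132, 194 and 148 CPM across WT mice 1 to 3, against 141, 144 and 145 CPM across Lpcat3 KOMac mice 1 to 3. Only WT mouse 2 stood out, and the log2 fold change of -0.14 (SE 0.15) turned to 0.029 without that mouse. *Cotl1*, whose product binds and stabilises the lipoxygenase, was abundant, at 516 to 672 CPM, with a log2 fold change of -0.04 (SE 0.13), of either sign by setting. *Abcc1*, which exports leukotriene C4, averaged 122 ± 31.6 CPM for WT mice and 123 ± 21.8 CPM for Lpcat3 KOMac mice (SD, n = 3 each), and its log2 fold change of 0.015 (SE 0.23) likewise took either sign.

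Downstream, the dipeptidase *Dpep2*, which turns leukotriene D4 into E4, was at 2.02, 1.3 and 6.78 CPM across WT mice 1 to 3, against 6.41, 3.63 and 3.7 CPM across Lpcat3 KOMac mice 1 to 3, highest in WT mouse 3 and Lpcat3 KOMac mouse 1 and overlapping between groups. On the other strand, *Dus2* shares 150 exonic bases with it and had 314 to 602 counts, against 65 to 372 for *Dpep2*. *Dpep1* had too few counts to test. *Cyp4f18*, which inactivates leukotriene B4 by hydroxylation, averaged 38.6 ± 12 CPM in WT mice and 39.4 ± 6.37 CPM in Lpcat3 KOMac mice (SD, n = 3 each), with a log2 fold change of 0.03 (SE 0.24) that also took either sign. It shares 181 exonic bases with *Zfp961* on the other strand. The second receptors *Cysltr2* and *Ltb4r2* stood at -0.18 (SE 0.17) and 0.70 (SE 0.38) on the log2 fold scale, the latter resting on 0.16 to 0.501 CPM, and *Oxgr1*, a receptor of leukotriene E4, had 0 counts in all libraries. *Alox15*, another arachidonate lipoxygenase, was uneven, at 2.23, 2.12 and 22.2 CPM across WT mice 1 to 3, against 34, 1.52 and 11.6 CPM across Lpcat3 KOMac mice 1 to 3. Its log2 fold change of 0.83 had a standard error of 1.38.

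Across the 6 libraries, the genes most like *Alox5ap* in log2 CPM were *Irf9*, *Irf2bp1*, *Isg20*, *Tmx1* and *Zfp787* (Pearson's r from 0.987 to 0.992), and 104 genes had an r above 0.9. Most like *Ltc4s* were *Ywhah*, *Trappc6b*, *Upf3a*, *Phf13* and *Rnf6* (r from 0.974 to 0.999), with 128 genes above 0.9. Most like *Alox5* were *Adgrg6*, *Slc25a24*, *Spaca9*, the gene ENSMUSG00000108658 and *Wbp4* (r from 0.989 to 0.994), with 492 genes above 0.9. These values rank genes over 6 points that share the depth and cell makeup of their libraries, and they describe likeness alone.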

How the data were processed

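Poly-A RNA was sequenced from F4/80-positive liver cells of 3 WT and 3 Lpcat3 KOMac mice, 1 library each, with total counts of 44954224 to 71392812. The authors deposited raw counts per Ensembl gene and gene lengths. The submitters' processing notes name Trimmomatic 0.36, STAR 2.5.2b, featureCounts of Subread 1.5.2 and GRCm38; strand and multi-mapping settings are not given in the sources used here, so reads of overlapping antisense genes cannot be told apart. Symbols came from GENCODE M21, which held 48970 of 49315 identifiers.

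The genotypes were compared in R 4.3.3 with edgeR 4.0.16: TMM, the default filter (minimum count 10), robust quasi-likelihood test, genotype as the only term, Benjamini-Hochberg adjustment over 16134 genes. An SE is the size of a log2 fold change over the root of its F statistic. Log2 CPM used a prior count of 2. Exact permutation tests were two-sided. The fits were tested on simulated data. Alternatives were DESeq2 1.42.0, limma-voom (limma 3.58.1), other scalings and filters, no robust dispersion, a replicate block, a hepatocyte covariate, a length offset and left-out mice. Leaving out 2 mice in the count of separated genes was chosen after seeing the data.

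The 10 genes, the lists and the tests were chosen with earlier results of these data known. Genes named are those 10, *Lpcat3*, *Lyz2* and pathway genes with an unadjusted p under 0.05 or a role next to the 10. Also named are the 5 genes most like *Alox5ap*, *Ltc4s* and *Alox5* and, chosen after their values were seen, overlapping genes and individual markers. No sample was left out of the main comparison.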

Additional observations from a re-analysis of the deposited data

How the results depend on the processing

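None of the leukotriene and pathway genes tested under each of the 17 alternatives was called. *Alox5ap* and *Ltc4s* kept their direction in all of them, between -1.05 and -0.61 and between -0.92 and -0.49. Leaving out mice could not turn that direction, since every Lpcat3 KOMac mouse lay below every WT mouse for both genes. Over all genes, DESeq2 called 12 in place of 0. The number of leukotriene genes whose groups do not overlap ranged from 2 to 6 with 1 mouse left out, against 10.3% to 32.7% of all genes, and was 6 without both WT mouse 1 and Lpcat3 KOMac mouse 2, against 41.8%. It was 3 under total counts alone, against 6.37%. With 1 mouse left out, the log2 fold changes that took both signs ranged from -0.47 to 0.65 for *Mgst2*, -0.19 to 0.50 for *Mgst3*, -0.26 to 0.029 for *Pla2g4a*, -0.16 to 0.22 for *Abcc1*, -0.12 to 0.31 for *Cyp4f18*, -0.38 to 2.85 for *Alox15* and -0.12 to 0.075 for *Cotl1*. With the hepatocyte covariate *Mgst2* was at 0.38, *Mgst3* at -0.067 and *Cotl1* at 0.016. The length offset gave *Abcc1* -0.0067 and *Cotl1* 0.020, total counts alone *Cotl1* 0.044, and limma-voom *Mgst2* 0.11. Without both libraries rich in hepatocyte transcripts *Abcc1* was at -0.017 and *Cyp4f18* at -0.25. The cause was not tested. Under a minimum of 10 counts in every library, 9 leukotriene genes, without *Mgst2*, and 24 pathway genes were tested.

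Both genotypes carry replicate numbers 1 to 3, but nothing says that a number pairs mice, and same-numbered libraries deviated from their genotype means with a mean correlation of -0.18 across genes, against 0.11 for other pairs. With the replicate block, 0 genes were called, 0 of the 10 and 0 of the 28, and 138 of 16134 genes stood at an unadjusted p under 0.05 in place of 426. The block moved *Mgst2* to 0.045 and left *Alox5ap* at -0.87 and *Ltc4s* at -0.75. *Mgst2* rests on 6 to 19 counts and *Ltb4r1* on 31 to 47.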
